A study of Mus musculus with 10 samples.

Results

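Ifi27l2a (Entrez 76933) and, as its comparison gene, Ifi27 (Entrez 52668) were 2 of the 27179 genes counted in EM γδ T cells. They were taken by their Entrez identifiers, and Ifi27l2a was selected on the difference of its counts between the groups in these libraries. The differences of Ifi27l2a and Ifi27 between the groups are therefore given as a description without a test. RNA-sequencing was performed on 1 library from each of 5 mice pre-exposed to P. chabaudi, a rodent malaria parasite, and from each of 5 naïve mice. All mice were female C57BL/6 mice, aged 6 to 8 weeks at the start. The pre-exposed mice had received 50000 infected red blood cells (iRBC) intravenously. Chloroquine and pyrimethamine were given to both groups from day 14, and the mice were killed for their spleens at 12 weeks after the drugs. EM γδ T cells were FACS sorted as CD3+ γδTCR+ CD62L- CD44+ splenocytes, and RNA was taken without stimulation in culture.

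Ifi27l2a, Ifi27 and Ifi27l2b belong to the ISG12 family of small, very hydrophobic proteins that lie in intracellular membranes. Type I interferons, which signal through the receptor chains Ifnar1 and Ifnar2, induce transcription of family members, as they do of antiviral genes such as Isg15, Ifit1 and Mx1. In mice, an ISG12 protein has been described as a partner of the Nr4a nuclear receptors. High Ifi27l2a transcript is known from virus-infected tissue and from interferon-exposed myeloid cells and lymphocytes.

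The 3 genes lie side by side on chromosome 12 of GRCm38. In the GENCODE M21 annotation Ifi27l2a spans chr12:103442167-103443680 on the minus strand, with 4 exons that together hold 463 bases, the length also given with the deposited counts. Ifi27 lies at chr12:103434211-103440239 on the plus strand, 1927 bases away, and was counted over 1053 bases. Ifi27l2b, at chr12:103450898-103457223 on the minus strand, begins 7217 bases beyond Ifi27l2a. The RefSeq span of Ifi27l2a (chr12:103433873-103443680) encloses that of Ifi27, but the GENCODE exons of the genes share 0 bases. Of the 388 stretches of 76 bases in the Ifi27l2a transcript, 0 occurred in another gene, and of its 434 stretches of 30 bases, 28 also occurred in Ifi27l2b. Whether strand was used in the counting is not stated. Reads from an unannotated transcript of the opposite strand therefore cannot be told apart from those of Ifi27l2a or Ifi27.

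Ifi27l2a mRNA was about 4-fold more abundant in pre-exposed than in naïve EM γδ T cells. Levels are given in CPM, the counts of a gene relative to the library total after TMM scaling. Pre-exposed mice 1 to 5 had 167, 371, 203, 172 and 233 CPM of Ifi27l2a, and naïve mice 1 to 5 had 68.4, 44.3, 64.3, 44.7 and 53.0 CPM. The groups did not overlap, and the lowest pre-exposed mouse was 2.44 times the highest naïve mouse. The mean was 229 ± 83.4 CPM in pre-exposed mice and 54.9 ± 11.1 CPM in naïve mice (SD, n = 5 each), a ratio of means of 4.17. These levels rest on 1285 to 7618 read pairs per library in pre-exposed mice and 367 to 956 in naïve mice, so counting error was small beside the spread between mice. The log2 fold change was 2.06 with a standard error of 0.27 in the edgeR quasi-likelihood fit, and 2.62% of the 12655 genes tested had a larger one. In bulk libraries, more cells that carry the transcript and more transcript per cell cannot be told apart.

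Ifi27 mRNA differed less. Pre-exposed mice 1 to 5 had 110, 209, 160, 169 and 201 CPM of Ifi27, against 105, 94.1, 108, 79.7 and 102 CPM in naïve mice 1 to 5. Pre-exposed mouse 1 was only 1.02 times the highest naïve mouse, while the other 4 pre-exposed mice were well above all naïve mice. Ifi27 averaged 170 ± 39.2 CPM in pre-exposed mice and 97.8 ± 11.3 CPM in naïve mice (SD, n = 5 each), with a log2 fold change of 0.80 and a standard error of 0.22. In the whole comparison edgeR called 5.12% of the tested genes higher and 1.17% lower in pre-exposed mice (6.29% in either direction). In 2.77% every pre-exposed library was above, and in 2.17% below, every naïve library. Both Ifi27l2a and Ifi27 were in that 2.77%.

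Ifi27l2b was close to absent from both groups. Pre-exposed mice had 1, 30, 2, 5 and 2 read pairs of Ifi27l2b, and naïve mice had 2, 0, 0, 1 and 2, where a count of 0 allows up to 3. It did not pass the filter on low counts and was not tested. Pre-exposed mouse 2, with 30 pairs, also had the highest Ifi27l2a and Ifi27 and the deepest library.

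**Figure D1:**
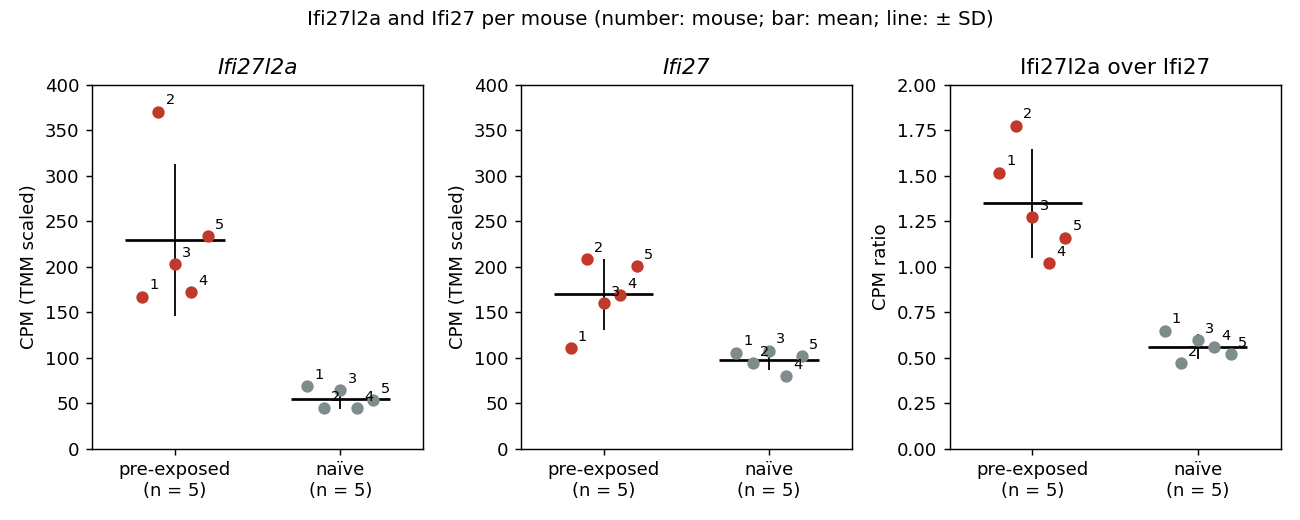
Ifi27l2a and Ifi27 mRNA in CPM and the ratio of their CPM within each library, for 5 pre-exposed (red) and 5 naïve (grey) mice. Points are mice with their numbers, bars are means and vertical lines are ± SD. All pre-exposed mice lie above all naïve mice in the Ifi27l2a panel and in the ratio, and pre-exposed mouse 1 lies next to the naïve mice in the Ifi27 panel.

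The balance between the neighbouring genes also differed, in a measure that does not depend on the scaling factor of a library. It does depend on the trend with gene length described below. The difference between the 2 genes' log2 fold changes was 1.27, and 0.86 with that trend removed. The ratio of Ifi27l2a to Ifi27 CPM within a library was 1.52, 1.78, 1.27, 1.02 and 1.16 in pre-exposed mice 1 to 5, against 0.649, 0.471, 0.596, 0.560 and 0.521 in naïve mice 1 to 5. Ifi27 was thus the larger count in every naïve library and Ifi27l2a the larger in every pre-exposed library. The mean ratio was 1.35 ± 0.301 in pre-exposed mice and 0.559 ± 0.0682 in naïve mice (SD, n = 5 each). Per length of transcript, Ifi27l2a exceeded Ifi27 in both groups. Ifi27l2a had 495 ± 180 RPKM (CPM per kilobase of transcript) in pre-exposed mice and 119 ± 23.9 in naïve mice, and Ifi27 had 161 ± 37.3 in pre-exposed mice and 92.9 ± 10.8 in naïve mice (SD, n = 5 each). By RPKM, Ifi27l2a ranked 94 to 297 among the tested genes in pre-exposed libraries and 539 to 968 in naïve libraries. Ifi27 ranked 592 to 806 in pre-exposed and 883 to 1218 in naïve libraries, a smaller shift.

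Pre-exposed mice varied more in Ifi27l2a than naïve mice. The coefficient of variation was 36.4% in pre-exposed mice and 20.2% in naïve mice, and for Ifi27 it was 23.1% in pre-exposed mice and 11.6% in naïve mice. The order of the pre-exposed mice was 2, 5, 3, 4, 1 for Ifi27l2a and 2, 5, 4, 3, 1 for Ifi27. The place of mouse 5 rests on its scaling factor. Relative to library totals alone, Ifi27l2a was at 160, 338, 195, 178 and 147 CPM in pre-exposed mice 1 to 5, lowest in mouse 5, and at 65.3 CPM or less in naïve mice. Over the 10 libraries, log2 CPM of Ifi27l2a and Ifi27 had a Pearson r of 0.92, to which the difference between the groups contributes. The r of their deviations from the group means was 0.75 (n = 10), and it was -0.18 once each library's trend with gene length, described below, was removed.

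Library properties differed between the mice. Total counts overlapped, at 8747888 to 22542832 per library in pre-exposed mice and 6587199 to 19993444 in naïve mice, and no pair of libraries in a group agreed within sampling noise. Immunoglobulin genes took 4.50%, 6.68%, 1.70%, 0.556% and 0.345% of the counts of pre-exposed mice 1 to 5, with up to 0.737% in naïve mice. An index pair is part of the sample description of 7 libraries and is missing from that of pre-exposed mice 2, 3 and 4. Ifi27l2a averaged 249 CPM in pre-exposed mice 2 to 4 and 200 CPM in pre-exposed mice 1 and 5, against 54.9 CPM in naïve mice. Fitted against all naïve mice, its log2 fold change was 2.13 with mice 2 to 4 and 1.92 with mice 1 and 5, and that of Ifi27 was 0.82 with mice 2 to 4 and 0.72 with mice 1 and 5. All naïve libraries carry the index pair, and the part of the description style in the difference was not tested. The library of pre-exposed mouse 5 was the least even, with 24.7% of its counts in its top 10 genes, where the next pre-exposed library had 9.58%. Without mouse 5 the log2 fold change was 2.03 for Ifi27l2a and 0.69 for Ifi27, and with any 1 library left out it was 1.81 to 2.15 and 0.69 to 0.91.

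Gene length moved with the groups, and Ifi27l2a is among the shortest genes tested. Its 463 bases are undercut by 2.48% of the tested genes, whose median length was 2665 bases, and the 1053 bases of Ifi27 by 12.1%. Short genes as a whole were higher in pre-exposed libraries. The median log2 fold change was 1.14 over the 380 tested genes of up to 500 bases, 0.80 over the 1036 genes from there up to 1000 bases and 0.32 over the next 2971 genes, up to 2000 bases. Over the 3319 genes longer than 4000 bases it was -0.33, and over all tested genes it was 0.02. Spearman's rho between a gene's length and its deviation from its mean over all libraries was 0.273, -0.536, -0.422, -0.239 and -0.136 across genes in pre-exposed mice 1 to 5, and 0.259 to 0.413 in naïve mice. Pre-exposed mouse 1 lay within the naïve range of rho and the other 4 pre-exposed mice below it.

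Removal of each library's trend with length lowered both differences. The log2 fold change of Ifi27l2a became 1.11 and that of Ifi27 became 0.25. On this scale Ifi27l2a stood at 7.66, 7.81, 7.26, 7.09 and 6.71 log2 CPM in pre-exposed mice 1 to 5, against 6.62, 5.92, 6.25, 6.03 and 6.33 in naïve mice 1 to 5. The groups still did not overlap, but pre-exposed mouse 5 came within 0.1 of naïve mouse 1. Ifi27 stood at 6.86, 7.16, 7.01, 7.19 and 7.33 log2 CPM in pre-exposed mice and 7.03, 6.89, 6.90, 6.60 and 6.91 in naïve mice, and its groups overlapped. The difference between the 2 genes' log2 fold changes was 0.86 with the trend removed and 1.27 without. The order of the pre-exposed mice by Ifi27l2a became 2, 1, 3, 4, 5.

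**Figure D2:**
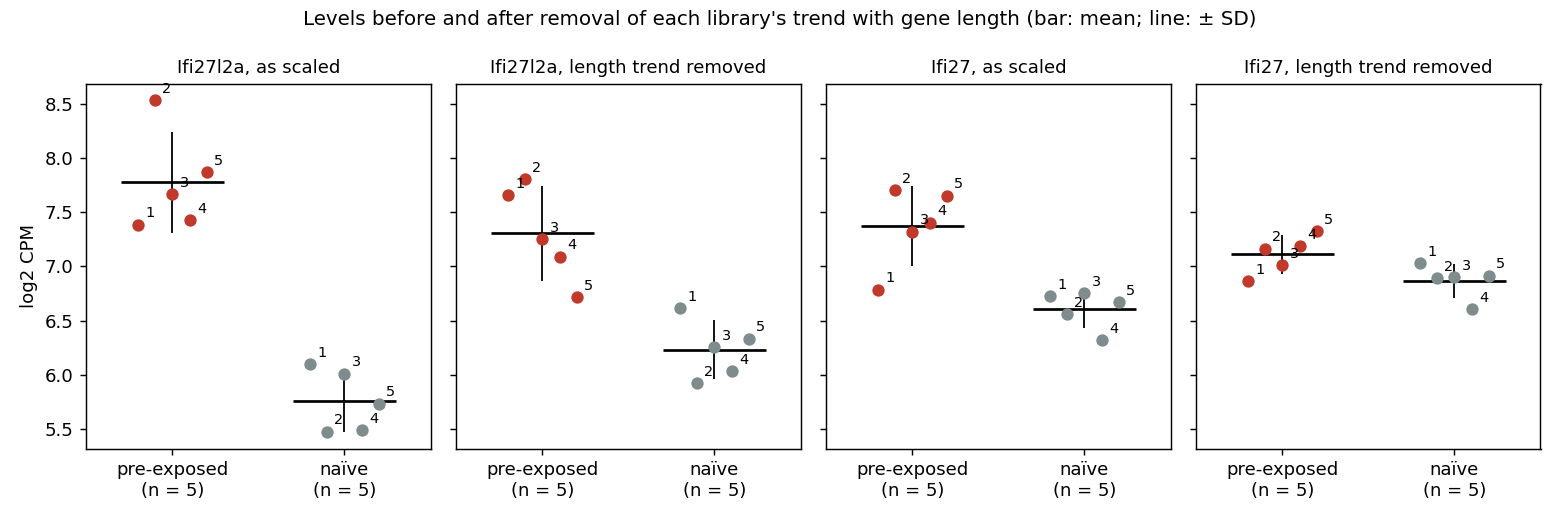
Log2 CPM of Ifi27l2a and Ifi27 per mouse, as scaled and after removal of each library's trend with gene length, in 5 pre-exposed (red) and 5 naïve (grey) mice. Bars are means and vertical lines ± SD. Removal of the trend brings the Ifi27l2a groups closer without overlap, and the Ifi27 groups overlap after it.

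Other type I interferon-stimulated genes were examined to see whether Ifi27l2a moved with its pathway. Of a list of 48 such genes, all of which were tested, 2 rose and 0 fell in pre-exposed mice by edgeR at an adjusted p under 0.05. That is 4.17% of the list higher, close to the 5.12% of all tested genes. Their median log2 fold change was 0.18, beside 0.02 over all tested genes, with 26 values above 0 and 22 below. Without adjustment, 11 had higher and 3 lower levels at p under 0.05. No member reached the log2 fold change of Ifi27l2a, and the list ran from -0.96 to 1.71. With the length trend removed this turned, and 3 members exceeded the 1.11 of Ifi27l2a. With 1 library left out, the count higher was 0 without pre-exposed mouse 2 or 3 or any of the 5 naïve mice, 1 without pre-exposed mouse 4, and 5 and 7 without pre-exposed mice 1 and 5.

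The 2 genes that rose encode an oligoadenylate synthetase-like protein and tetherin. Oasl2 had 25.2, 24.2, 21.5, 14.6 and 12.4 CPM in pre-exposed mice 1 to 5, against 11.3, 3.52, 5.65, 9.57 and 6.21 CPM in naïve mice 1 to 5, with a log2 fold change of 1.46 and an adjusted p of 0.0317 by edgeR. Bst2, which tethers budding virions and also marks plasmacytoid dendritic cells, had 98.4, 145, 79.2, 87.4 and 53.2 CPM in pre-exposed mice, against 33.5, 37.9, 55.8, 47.3 and 54.9 CPM in naïve mice. Its log2 fold change was 1.02 with an edgeR adjusted p of 0.0425, and pre-exposed mouse 5 lay within the naïve range. With the length trend removed, the log2 fold change of Oasl2 was 1.58 and that of Bst2 was 0.35, with edgeR adjusted p of 0.0328 and 0.569. Usp18, an inhibitor of interferon receptor signalling, and Oas1g, an activator of RNase L, had log2 fold changes of 0.89 and 1.12 with edgeR adjusted p of 0.0533 and 0.0568. Oas1g belongs to a cluster of near-identical genes, so its count is uncertain. In both, every pre-exposed mouse was above every naïve mouse. Such separation was seen in 4 of the 48 genes (Oasl2, Usp18, Oas1g and Rsad2), beside the 2.77% of all tested genes.

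Some common reporters of the pathway did not pass the test. The ubiquitin-like modifier Isg15 had 32.7 ± 11.4 CPM in pre-exposed mice and 22.8 ± 5.20 CPM in naïve mice, and the RNA-binding protein Ifit1 had 65.1 ± 19.7 CPM in pre-exposed mice and 45.9 ± 13.96 CPM in naïve mice (SD, n = 5 each). Irf7, the factor that amplifies interferon production, had 175 ± 64.5 CPM in pre-exposed mice and 158 ± 10.8 CPM in naïve mice, and Irf9, a DNA-binding factor of the interferon response, had 126 ± 34.9 CPM in pre-exposed mice and 127 ± 15.6 CPM in naïve mice. Isg15, Ifit1, Irf7 and Irf9 were named after their values were seen. Summed over the list, the 48 genes had 5910, 7578, 6902, 7008 and 6583 CPM in pre-exposed mice 1 to 5, against 6756, 6233, 6079, 5574 and 5529 CPM in naïve mice 1 to 5. The sums overlapped, and pre-exposed mouse 1 was below naïve mice 1, 2 and 3. Per length, Ifi27l2a was above 47 of the 48 genes in pre-exposed mice and above 46 in naïve mice, and only Ly6e, a GPI-anchored surface antigen, was above it in both groups.

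**Figure D3:**
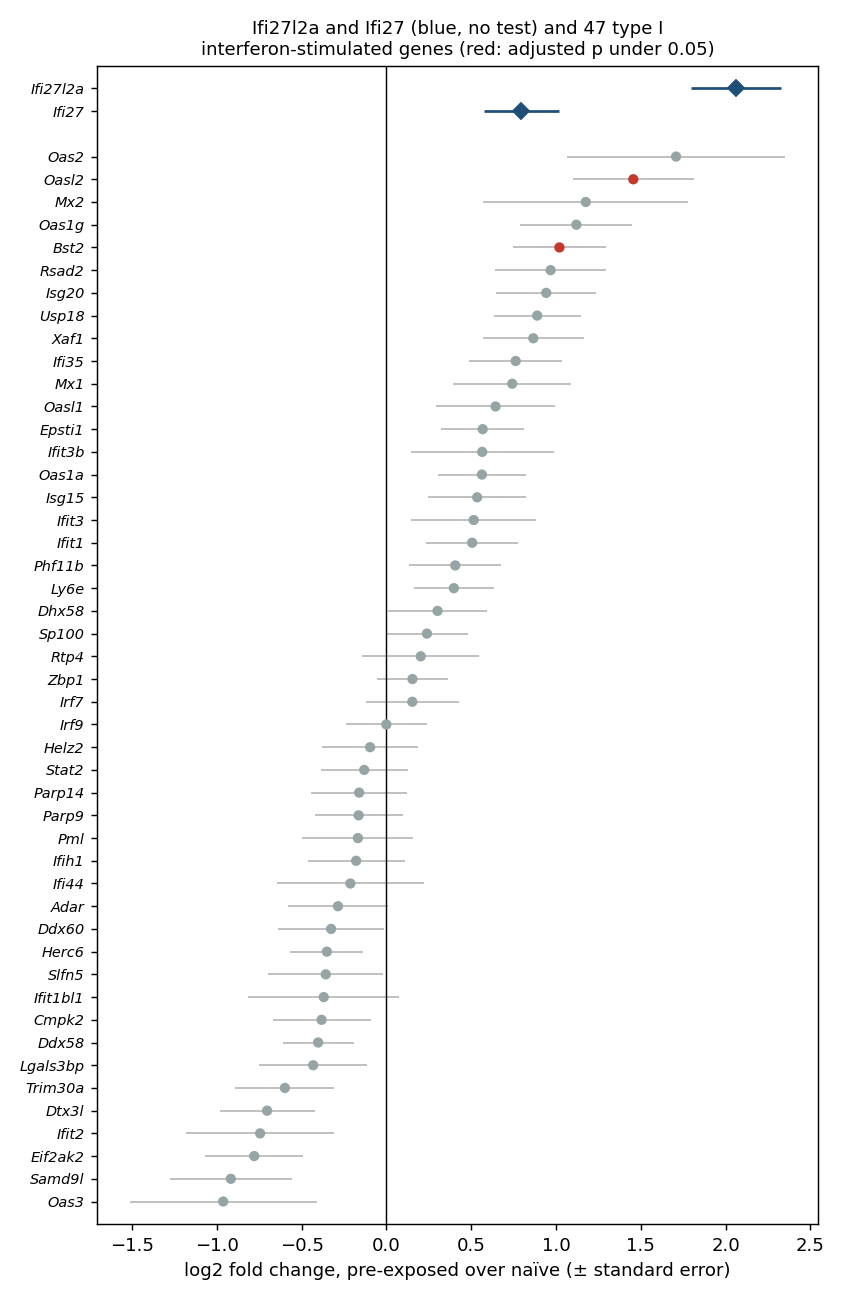
Log2 fold changes, pre-exposed over naïve, of Ifi27l2a and Ifi27 (blue, a description) and of 47 of the 48 type I interferon-stimulated genes (red where the edgeR adjusted p was under 0.05, otherwise grey), with bars of ± 1 standard error. Ifi27l2a, at 2.06, lies to the right of all 47, whose values run from -0.96 to 1.71, in the fit without removal of the length trend.

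The promoters of several of these genes hold the interferon-stimulated response element, the sequence through which type I interferons act on many of their target genes. GAAANNGAAA, on either strand, was searched in the 250 bases before each gene's start in RefSeq's GRCm38.p6. It was found in 15 of the 37 listed genes that matched the promoter table (40.5%), against 936 of 27025 genes (3.46%), and 0 of the 3 Ifi27 genes matched the table. In the list of Ifng-responsive genes described below it was found in 11 of 20 (55%), and among the genes most like Ifi27l2a, also given below, in 0 of 5 and 0 of 6. Windows of 50 bases from Bst2, which rose, and from Isg15 and Ifit1, which did not pass the test, are shown in the direction of the gene because they carry the same element, in capitals, with overlapping matches joined.
Bst2, chr8:71537567-71537616, minus strand: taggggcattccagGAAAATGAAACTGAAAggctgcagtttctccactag
Isg15, chr4:156200855-156200904, minus strand: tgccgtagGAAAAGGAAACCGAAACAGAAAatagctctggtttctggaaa
Ifit1, chr19:34640784-34640833, plus strand: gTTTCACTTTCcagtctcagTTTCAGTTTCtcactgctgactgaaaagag
A match describes these letters and does not show binding in these cells.

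Of the interferons, only Ifng, the type II interferon of T and NK cells, was measured at a level that could be tested. Ifng had 170, 196, 228, 140 and 333 CPM in pre-exposed mice 1 to 5, against 80.7, 84.9, 103, 70.8 and 52.0 CPM in naïve mice 1 to 5. It rose by a log2 fold change of 1.44 (SE 0.27, edgeR adjusted p = 0.0133), and the groups did not overlap. The call held in each of 10 fits with 1 library left out, but with the length trend removed the log2 fold change was 1.01 and the edgeR adjusted p 0.0706. The adjusted p was 0.0754 with the replicate block, 0.0651 with pre-exposed mice 1 and 5 and 0.367 with voom and TREAT. Of the 12 listed interferon genes 7, Ifnb1 among them, had 0 counts in all 10 libraries. Among 20 tested receptor and signalling genes 0 rose and 0 fell, although edgeR's unadjusted p was under 0.05 for 2 with higher and 2 with lower levels. Ifnar2, a chain of the type I receptor, had 214 ± 69.9 CPM in pre-exposed mice and 140 ± 34.6 CPM in naïve mice (edgeR adjusted p = 0.163). Ifngr1, the ligand-binding chain for Ifng, had 744 ± 293 CPM in pre-exposed mice and 1168 ± 297 CPM in naïve mice (edgeR adjusted p = 0.162).

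Genes that respond mainly to Ifng did not rise as a list. Of 29 tested, 3 rose and 0 fell, 10.3% higher beside 5.12% of all tested genes, and the median log2 fold change was -0.17. Without adjustment, 5 had higher and 5 lower levels at an edgeR p under 0.05. The 3 that rose were Irf8, a factor of myeloid and B cells, Ciita, the activator of MHC class II genes, and the chemokine Cxcl10. Their log2 fold changes were 1.89, 3.19 and 1.71. With 1 library left out the count was 0 to 5, and it was 0 without pre-exposed mouse 2 or naïve mouse 1, 2 or 4. Cxcl10 had 31.7, 16.9, 18.9, 11.9 and 45.2 CPM in pre-exposed mice 1 to 5, against 4.26, 5.33, 13.7, 10.6 and 3.32 CPM in naïve mice 1 to 5. Its highest value was in pre-exposed mouse 5, which also had the highest Ifng, and with the length trend removed its log2 fold change was 1.27 with an edgeR adjusted p of 0.176. Irf8 had 169, 210, 104 and 116 CPM in pre-exposed mice 1 to 4 but 19.4 CPM in mouse 5, below the naïve range of 28.5 to 38.0 CPM.

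The Ifitm family comprises small membrane proteins that block viral entry. Of 5 tested Ifitm genes, 4 rose (Ifitm1, Ifitm2, Ifitm3 and Ifitm6), or 80% beside 5.12% of all tested genes, with log2 fold changes of 3.65 to 4.16. The count was 2 without pre-exposed mouse 2, with the length trend removed or with the replicate block, and 0 with pre-exposed mice 1 and 5 or with the description style as a covariate. Ifitm3 had 156, 321, 102, 62.2 and 8.54 CPM in pre-exposed mice 1 to 5, against 2.64, 3.83, 16.7, 10.5 and 5.78 CPM in naïve mice 1 to 5. Pre-exposed mouse 5 was within the naïve range of Ifitm3. Its Ifi27l2a was the second highest of the group in TMM-scaled CPM, and the lowest relative to library totals or with the length trend removed. With the length trend removed, the pre-exposed mice had the same order for Ifi27l2a as for Ifitm3 in CPM. Of the Nr4a receptors and the exporter Xpo1, 4 genes in all, 0 rose and 0 fell, also with 0 at an unadjusted p under 0.05 by edgeR. Nr4a1 had 241 ± 74.2 CPM in pre-exposed mice and 234 ± 89.4 CPM in naïve mice (SD, n = 5 each).

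The libraries were sorted as γδ T cells, and their defining transcripts were abundant in every library. Trdc, the constant region of the TCR δ chain, had 1141 to 3626 CPM in pre-exposed mice and 1826 to 3873 CPM in naïve mice. Markers of other cell types moved with the groups. Of 14 tested monocyte and macrophage genes 8 rose and 0 fell, with a median log2 fold change of 2.54, and of 12 conventional dendritic cell genes 7 rose and 0 fell, with a median of 2.10. Of 7 tested B cell genes 4 rose, and of 12 NK cell genes 5 rose. The shares higher were 57.1%, 58.3%, 57.1% and 41.7%, beside 5.12% of all tested genes. The rise was not limited to these lists, with 55.6% of erythroid genes and 40% of plasmacytoid dendritic cell genes higher. Without pre-exposed mouse 5, 14 of 19 monocyte and macrophage genes and 10 of 12 dendritic cell genes rose. Without pre-exposed mouse 2, 3 of 14 and 2 of 12 rose, with medians of 2.37 and 1.97. Of the B cell genes 1 of 7 rose without pre-exposed mouse 2 or without any 1 naïve mouse and 2 without pre-exposed mouse 3, and of the NK cell genes 3 of 12 rose without pre-exposed mouse 2 and 2 without naïve mouse 1. The summed level of the 19 monocyte and macrophage genes was 916 to 2731 CPM in pre-exposed mice and 680 to 1328 CPM in naïve mice, and that of the 12 dendritic cell genes was 254 to 1510 CPM in pre-exposed mice and 156 to 299.97 CPM in naïve mice. Ccr2 and Ly6c2 made up most of the monocyte and macrophage sum in each naïve mouse. Ccr2 had 310 to 615 CPM in pre-exposed mice and 442 to 988 CPM in naïve mice, and Ly6c2 had 286 to 653 CPM in pre-exposed mice and 150 to 204 CPM in naïve mice. The sum therefore follows a few genes more than the list. The 12 B cell genes summed to 85.9 to 218 CPM in pre-exposed mice and 104 to 168 CPM in naïve mice, and the 12 NK cell genes to 1896 to 8710 CPM in pre-exposed mice, highest in mouse 5, and 1515 to 3010 CPM in naïve mice. Most of the B cell sum in each naïve mouse came from Cd79b, at 41.2 to 95.5 CPM, and Cd22, at 35.4 to 96.4 CPM. In pre-exposed mice these had 42.1 to 108 CPM and 19.3 to 95.3 CPM. Some defining markers were at or near 0. Pax5, which defines B cells, had 0 counts in all libraries, and Cd14 was at most 3.33 CPM in any library. Fcgr1 had 0 in all naïve libraries and in pre-exposed mouse 5, and 1.24, 3.26, 2.23 and 0.763 CPM in pre-exposed mice 1 to 4. These markers were not typical of their lists. The median log2 difference of the tested B cell genes from the naïve mean was 3.85, 3.10, 1.43 and 0.94 in pre-exposed mice 1 to 4.

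Pre-exposed mouse 5 had most monocyte, macrophage and dendritic cell markers within the naïve range. The median log2 difference of its monocyte and macrophage genes from the naïve mean was -0.08, against 3.44, 3.17, 2.59 and 1.98 in pre-exposed mice 1 to 4, and that of its dendritic cell genes was -0.06, against 3.18, 2.62, 2.55 and 2.30. Of the 19 monocyte and macrophage genes, 15 were at or below the highest naïve value in mouse 5, and 7, among them Cd14, Fcgr1, C1qa and Itgam, had 0 counts there. Its B cell genes stood at -0.62. The other 4 of the 19 were above the naïve range in mouse 5. Ly6c2, which some T cells also express, was at 475 CPM, against 150 to 204 CPM in naïve mice, and the F4/80 gene Adgre1 was at 14.4 CPM, against 0.404 to 3.08 CPM. Spic was at 3.45 CPM, against at most 1.06 CPM in naïve mice, and Clec4n was at 1.64 CPM, against 0 counts in naïve mice. In TMM-scaled CPM, the summed markers of some other types were also higher in mouse 5. Its NK cell genes summed to 8710 CPM, its erythroid genes to 2340 CPM and its plasmacytoid dendritic cell genes to 385 CPM, against at most 3010, 688 and 280 CPM in naïve mice. Of the 12, 10 and 11 genes in these sums, 3, 4 and 6 were at or below the highest naïve value in mouse 5. Its effective library size after TMM scaling was 5504390 beside a total count of 8747888, which raises its CPM relative to library totals. In the same library Ifi27l2a was at 233 CPM, above every naïve mouse. Pre-exposed mouse 1 had the highest median of monocyte and macrophage genes and, in TMM-scaled CPM, the lowest Ifi27l2a of its group. With the length trend removed, the order of the pre-exposed mice by Ifi27l2a was 2, 1, 3, 4, 5. Their monocyte and macrophage genes and their dendritic cell genes, summed in CPM with the trend left in, had the same order. The summed neutrophil genes and the summed Ifitm genes had it too. By the medians above, mouse 1 came before mouse 2 for monocyte and macrophage genes and for dendritic cell genes. The part of other cell types in the Ifi27l2a level of pre-exposed mice was not tested.

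**Figure D4:**
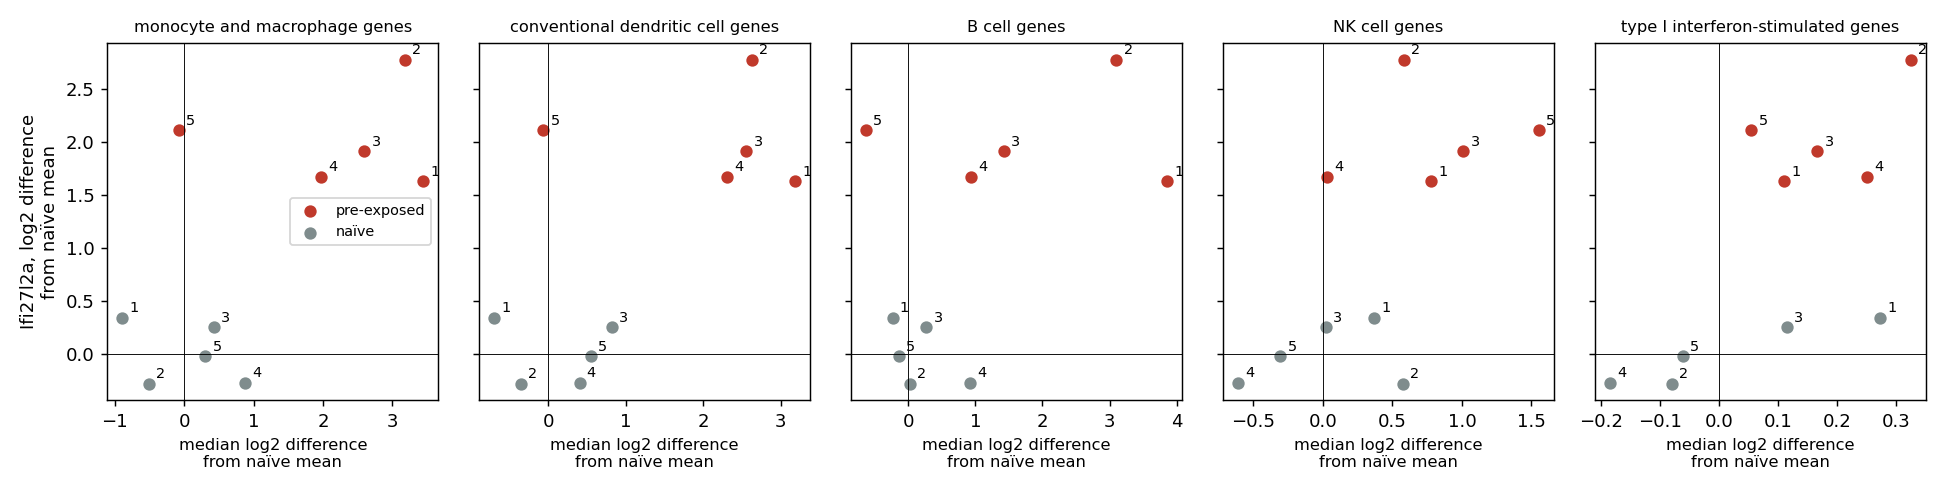
Log2 CPM of Ifi27l2a as a difference from the naïve mean (vertical axis) against the median log2 difference from the naïve mean of monocyte and macrophage, conventional dendritic cell, B cell, NK cell and type I interferon-stimulated genes (horizontal axes, each with its own range), for 5 pre-exposed (red) and 5 naïve (grey) mice with their numbers. Pre-exposed mouse 5 lies with or, for B cell genes, below the naïve mice along the first 3 horizontal axes, has the highest value along the NK cell axis and lies with the pre-exposed mice along the vertical axis. The vertical axis is TMM-scaled. Relative to library totals or with the length trend removed, mouse 5 had the lowest Ifi27l2a of the pre-exposed mice.

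Correlations were computed over the 10 libraries, with the trend with gene length left in. Removal of that trend took the r of deviations between Ifi27l2a and Ifi27 from 0.75 to -0.18. Correlations with the lists were not computed with the trend removed, so covariation apart from it was not tested. Over the tested monocyte and macrophage genes the median Pearson r with Ifi27l2a was 0.61 for log2 CPM and -0.02 for deviations from the group means, and over the dendritic cell genes it was 0.66 and 0.01. Over all tested genes these medians were -0.05 and -0.01. Over the type I interferon-stimulated genes they were 0.31 and 0.23, and the largest r of log2 CPM there was that of Oas1g (0.88). Single monocyte and macrophage genes had r of log2 CPM from -0.70 to 0.92, and of deviations from -0.55 to 0.31. Single dendritic cell genes had r of log2 CPM from 0.02 to 0.84, and of deviations from -0.65 to 0.55. Among γδ T cell genes the r of log2 CPM ran from -0.93 (Il23r) to 0.81 (Cd3d). Il23r, the receptor through which IL-23 sustains IL-17-producing γδ T cells, fell in pre-exposed mice, with a log2 fold change of -1.33 and an edgeR adjusted p of 0.0116. Cd3d, a chain of the TCR complex, rose with a log2 fold change of 1.02 and an edgeR adjusted p of 0.0460, a call that was lost in 8 of the 10 fits with 1 library left out. With the length trend removed the log2 fold change of Cd3d was 0.60 with an edgeR adjusted p of 0.269. The points of each correlation share their libraries, and values of log2 CPM also share the difference between the groups.

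The genes most like Ifi27l2a across the libraries were in none of the interferon or cell type lists. Those lists hold only a small part of the genes compared, so absence from them says little about pathways or cell types. The length trend was left in here too. Of 10487 genes with a mean of at least 5 CPM, the 10 with the largest r of log2 CPM (n = 10 libraries) were Scimp, Gm13167, Chchd10, Gmnn, A630023P12Rik, Lockd, Nrp, Nkg7, Selenoh and Gngt2, with r of 0.95 to 0.97. Scimp encodes an adaptor of antigen-presenting cells, Nkg7 a granule protein of cytotoxic lymphocytes and Gmnn geminin, which restrains DNA replication. Their lengths were 607 to 1170 bases, all below the median of the tested genes. By deviations from the group means the 10 were Nsmce3, A630023P12Rik, Cmss1, 5830444B04Rik, Rsu1, Gmnn, Ndufaf6, Gm12216, Nrp and Gpr89, with r of 0.83 to 0.91, and 3 genes were in both sets. Ifi27 ranked 34 and 29 by the 2 measures.

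The genes on either side of the family differed less than Ifi27l2a. Ddx24, the nearest gene beyond Ifi27, had 186 ± 47.2 CPM in pre-exposed mice and 112 ± 11.5 CPM in naïve mice, with a log2 fold change of 0.73 (edgeR adjusted p = 0.0673). Otub2 and Asb2 had log2 fold changes of 0.30 and 0.50, with edgeR adjusted p of 0.711 and 0.418. Ppp4r4 and Serpina10, on the other side, had at most 21 read pairs over the libraries of a group and were not tested.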

How the data were processed

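The authors aligned read pairs to mm10 with Subread and deposited whole-number counts per Entrez gene from featureCounts, not normalized. Their versions and use of strand were not given in the sources used. The library kit is TruSeq in the labels and SMART ultra-low input in the paper. Of 27179 genes, 13534 passed filterByExpr. Genes without a symbol (767) and immunoglobulin genes (112) were left out, as in the study, and 12655 were tested. TMM-scaled counts were fitted with the quasi-likelihood test of edgeR 4.0.16 (robust, newer dispersion method) in R 4.3.3, with all 10 libraries and no covariate. Two-sided p-values had a Benjamini-Hochberg adjustment, with a threshold of 0.05. Standard errors were taken as the absolute log2 fold change over the root of F. Log2 CPM used a prior count of 2. The limit on a count of 0 covers counting error only. The length trend was removed with an offset from a loess fit per library (span 0.3) of deviations on log2 length. Members and lists were chosen with earlier results of these data known. Of the 18 lists, those of αβ T cells (1 of 8 tested higher, 12.5%), plasma cells (2 of 6, 33.3%), plasmacytoid dendritic cells (4 of 10, 40%), neutrophils (1 of 3, 33.3%), erythroid cells (5 of 9, 55.6%) and mast cells and basophils (1 of 4, 25%) have their counts of calls here, with 0 lower in each. The share of all tested genes called higher was 5.12%. Of 20 γδ T cell genes 2 were higher (10%) and 2 lower. Of each list, up to 4 tested genes with the smallest p were eligible to be named, with markers at 0, the 3 nearest genes on each side and the 10 genes most like Ifi27l2a. Ccr2, Cd79b and Cd22 are named as large parts of the sums of their lists. Alternatives were other scalings, filters and tests (DESeq2 1.42.0, limma 3.58.1), the replicate number as a block, the description style as a covariate, subsets of mice and each library left out. On counts simulated for 5 pre-exposed and 5 naïve libraries over 12655 genes, the edgeR step was tested with known fold changes. The labels call each library a separate replicate, and p-values measure only the spread between these libraries. A gene of the interferon-stimulated list is not reported by name and is left out of the plot of that list.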

Additional observations from a re-analysis of the deposited data

Results flagged for a closer look

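In 5 of 42 groups of 5 libraries examined, the highest or lowest library stood far from the other 4, and chance gives about 1 in 20. Ifi27l2b was at 1.46 CPM in pre-exposed mouse 2, and the next mouse was at 0.363 CPM. The summed Ifng-responsive genes were at 4506 CPM in pre-exposed mouse 5, below the 5509 CPM of the next. The summed γδ T cell genes were at 8233 CPM in pre-exposed mouse 1, and the other 4 pre-exposed mice had at least 14531 CPM. The summed neutrophil genes were at 409 CPM in pre-exposed mouse 2, and the next had 113 CPM. The summed plasma cell genes were at 1083 CPM in naïve mouse 4, and the next had 489.7 CPM. Neither Ifi27l2a nor Ifi27 had such a library in its levels in CPM.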

How the results depend on the processing

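The log2 fold change of Ifi27l2a was 1.11 to 2.13 over 15 alternatives and that of Ifi27 was 0.25 to 0.83, both positive throughout. For both, 14 alternatives moved the value by less than 1 SD between mice, and removal of the length trend (1.11 and 0.25) moved it by more. With the trend removed, 786 genes and 3 type I interferon-stimulated genes exceeded Ifi27l2a.

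Counts of calls depended on the test and the libraries. All genes called were 796, against 1350 with DESeq2, 2 with voom and TREAT, 287 with sample quality weights added, 358 with the older dispersion method, 40 with the description style as a covariate, 27 with pre-exposed mice 1 and 5, 3904 with mice 2 to 4 and 218 with the length trend removed. Type I interferon-stimulated genes called higher were 2, against 4 with upper quartile scaling or with immunoglobulin genes kept, 6 with DESeq2, 11 with mice 2 to 4 (8 lower), 1 with the length trend removed, and 0 with library totals alone, with either voom and TREAT, with the older dispersion method, with the covariate and with mice 1 and 5. In those counts of 0, an unadjusted p under 0.05 was reached by 9, 1, 3, 11, 6 and 6. Ifng-responsive genes called higher were 3, against 5 with mice 2 to 4 (6 lower), 1 with the older method or the covariate, and 0 with voom and TREAT or with mice 1 and 5, where 4 and 3 had an unadjusted p under 0.05. With 1 library left out, all genes called were 81 to 1996, and the lists 0 to 7 and 0 to 5. Without pre-exposed mice 1, 2, 3 and 5 in turn, 1714, 81, 370 and 1996 genes were called, and without naïve mice 1 to 5 in turn, 138, 220, 459, 252 and 345. Of 15 alternatives, Ifng was called in 11, Ifitm3 in 11, Il23r in 11, Irf8 in 11, Ciita in 10, Oasl2 in 8, Cxcl10 in 8, Bst2 in 7 and Cd3d in 5, each with its sign unchanged throughout. Why the counts moved was not tested.

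With the replicate number as a block, 54 genes were called and 0 of either list, while 8 and 5 of them had higher levels at p under 0.05 without adjustment, and the log2 fold changes were 2.01 and 0.77. Deviations of same-numbered libraries had correlations of -0.26 to 0.05, so the numbers were not taken as pairs.

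Of the 10 genes most like Ifi27l2a, 4 were shared by Spearman's rho (3 for deviations) and 2 to 10 (2 to 9) with 1 library left out.

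Depth did not limit Ifi27l2a or Ifi27, with at least 367 read pairs in each library, and limited Ifi27l2b.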
